A study of Sus scrofa with 16 samples.

Results

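The border zone of pig hearts was compared between 4 pigs with ischemia/reperfusion (IR) injury and 4 sham-operated pigs, 4 weeks after surgery. The border zone is the left ventricular muscle next to the area sampled as scar, so it is defined by its position and not by histology. The 8 border samples, out of 16 samples in the series, were chosen by their zone label (IR pigs 2, 9, 11 and 14, and sham pigs 4, 5, 12 and 13), and 13728 of the 22629 genes listed had enough counts to be tested. All pigs were farm pigs of about 1 month of age at surgery. In IR pigs the left anterior descending coronary artery was occluded for 1 h and then reperfused, and sham-operated pigs had the surgery without occlusion. Each group held 2 females (IR pigs 2 and 14, sham pigs 4 and 5) and 2 males (IR pigs 9 and 11, sham pigs 12 and 13), and each replicate is a separate animal. The other 8 samples are the scar zone of the same pigs.

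Muscle next to an infarct survives the loss of blood flow but takes over load from the lost tissue. Its cardiomyocytes are known to return to fetal and stretch-induced genes such as *NPPA*, *NPPB* and *ANKRD1*, and its conduction and repolarization are known to change. Fibroblasts, macrophages and lymphocytes enter from the infarct side and can bring matrix, interferon and antigen presentation genes.

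The samples had the profile of ventricular muscle. *MYH7* ranged from 6959 to 9803 TPM and *TNNT2* from 9133 to 13820 TPM over the 8 samples (TPM, a transcript level that is scaled for length and depth). *DCN*, of fibroblasts, ranged from 437.9 to 619.6 TPM and *PECAM1*, of endothelium, from 94.5 to 178.9 TPM. The skeletal muscle gene *MYH4* did not exceed 0.0115 TPM and the adipocyte gene *LEP* 0.0637 TPM, and of the atrial markers *MYL4* ranged from 5.13 to 66.5 TPM. Y-linked genes fitted the sex labels in all 8 samples. Estimated counts summed to between 17379477 and 49045206 in IR pigs and between 19701606 and 22160749 in sham pigs, so that 3 counts stand for 0.0686 to 0.173 CPM (counts scaled to library size). IR pig 11 had the deepest library, the highest share of mitochondrially encoded counts (20.5%, against 15.01 to 18.7% in the other 7) and the lowest scaling factor, 0.892.

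No gene reached an adjusted p-value of 0.05 together with a 2-fold difference in edgeR's quasi-likelihood test with Benjamini-Hochberg adjustment (0% of 13728 genes higher and 0% lower). The smallest adjusted p-value in that edgeR test was 0.497. DESeq2 and edgeR's likelihood-ratio test each called 1 gene higher and 1 lower, *ENSSSCG00000001231* and *NALCN*. At a raw p-value (before adjustment) up to 0.05 there were 519 genes, where 686 would be expected by chance, 287 of them higher (2.09% of genes tested) and 232 lower (1.69%). Of the 519, 71 were at least 2-fold higher in IR pigs (0.517% of genes tested) and 38 at least 2-fold lower (0.277%). All 4 IR values lay above all 4 sham values for 119 genes (0.867%) and below them for 172 (1.25%). For a single gene, no overlap in either direction has an exact permutation p of 0.0286 (two-sided). The 2 shares together thus lay under what chance alone gives, and no overlap does not by itself mark a gene as changed. The middle 50% of genes had log2 fold changes between -0.13 and 0.15. The genes below are therefore described by their values in each pig, and none is called changed.

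**Figure D1:**
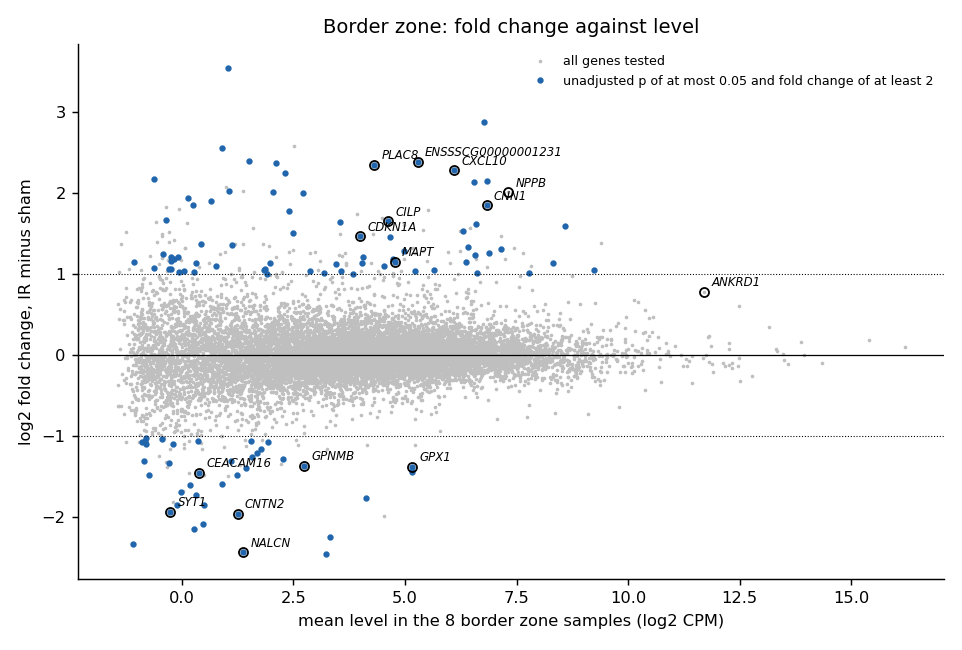
Log2 fold change (IR minus sham) against the mean level (log2 CPM) of the 13728 genes tested in the border zone, with the 109 genes at a raw p-value up to 0.05 with a 2-fold difference in blue and chosen named genes circled. The 71 higher and 38 lower blue genes spread over low and middle levels, and no gene passed the adjusted threshold.

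The lowest p-values belonged to a gene without a symbol and to the phosphatase gene *DUSP26*. *ENSSSCG00000001231* was at 37.3, 107.7, 64.4 and 53.1 CPM in IR pigs 2, 9, 11 and 14 and at 12.2, 5.86, 16.4 and 15.7 CPM in sham pigs 4, 5, 12 and 13 (the order of pigs used throughout). Every IR pig was above every sham pig, with a log2 fold change of 2.39 ± 0.37 (SE, n = 4 per group, exact permutation test, two-sided, p = 0.0286, the smallest that 4 against 4 allow). *DUSP26*, named after its values were seen because its fold is under 2, was at 109.0, 118.5, 95.5 and 96.4 CPM in IR pigs and at 67.6, 59.3, 53.6 and 62.7 CPM in sham pigs. It differed by 0.79 ± 0.12 on the log2 scale, again with no overlap. Both had an adjusted p-value of 0.497 in edgeR's quasi-likelihood test.

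The lower genes with no overlap included *NALCN*, *CNTN2*, *SYT1* and *GABRD*. *NALCN*, which encodes a sodium leak channel that sets resting membrane potential, was at 0.239, 1.35, 0.457 and 1.21 CPM in IR pigs and at 5.599, 3.31, 4.52 and 4.17 CPM in sham pigs. The highest IR pig had less than the lowest sham pig, and the log2 fold change was -2.43 ± 0.47. *CNTN2*, a cell adhesion gene expressed in the ventricular conduction system, was at 1.63, 1.63, 0.480 and 0.116 CPM against 5.26, 3.97, 2.19 and 3.78 CPM, a log2 fold change of -1.96 ± 0.59. *SYT1*, the calcium sensor of vesicle release, was lower by 1.93 ± 0.56 on the log2 scale, and *GABRD*, a GABA receptor subunit, by 1.30 ± 0.54, with IR pig 14 at 0.520 and the lowest sham pig at 0.521 CPM. *CNTN2* in pig 14 (0.116 CPM, where 3 counts are 0.173 CPM) and *GABRD* in pig 2 (0.143 CPM, where 3 counts are 0.143 CPM) were at or under 3 counts. *SYT1* was at 0.191 CPM in pig 2 and 0.137 CPM in pig 11, where 3 counts are 0.143 and 0.0686 CPM, so the folds of these genes rest on few reads. None of these genes exceeded 5.599 CPM in any pig. In bulk tissue, fewer cells of a type and less RNA per cell cannot be told apart, and which cells carried these transcripts was not tested.

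*TBX3*, a transcription factor of the conduction system, was also lower in every IR pig, at 6.74, 9.53, 7.48 and 8.84 CPM against 9.95, 10.6, 17.8 and 10.7 CPM. Its log2 fold change was -0.59 ± 0.22, and -0.35 without sham pig 12. In a list of 25 conduction genes written after these values were seen, 19 were tested, 15 had a lower mean in IR pigs and 4 a higher one, and the median log2 fold change was -0.26, beside 0.00 over all genes. The list's mean log2 CPM was 3.24, 3.32, 3.05 and 3.05 in IR pigs and ranged from 3.33 to 3.62 in sham pigs, with the highest IR pig at 3.32 and the lowest sham pig at 3.33. The list was written with *CNTN2* known and counts it, with the lowest log2 fold change of the list, -1.96. Neither the count of lower genes nor this separation is therefore support for a lower level of conduction genes. Scaled together with the scar samples, the groups overlapped, with IR pig 9 at 3.363 and sham pig 12 at 3.359. The other list, of 10 atrial and conduction genes, did not separate them, at 4.18, 3.71, 3.84 and 3.46 in IR pigs against 3.49 to 4.24 in sham pigs. *NPPA*, an atrial gene, was at 176 CPM in IR pig 2 and 107.6 CPM in sham pig 12 and between 13.6 and 52.9 CPM in the other 6 pigs. In the list of 23 calcium handling and ion channel genes tested, the median was -0.07, and none had a raw p-value up to 0.05. *ATP2A2*, the calcium pump of the sarcoplasmic reticulum, was at 3602 ± 499.9 CPM in IR pigs and 3889 ± 561 CPM in sham pigs (mean ± SD), and the groups overlapped.

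Of the remaining genes with no overlap, *GPX1*, *MAPT* and *PLAC8* had higher levels. *GPX1*, a peroxidase that removes hydrogen peroxide, was at 10.7, 19.4, 8.58 and 41.5 CPM in IR pigs and at 69.7, 50.2, 44.8 and 41.8 CPM in sham pigs. IR pigs 2, 9 and 11 were well below the sham pigs, while pig 14 was just under the lowest of them, and the log2 fold change was -1.37 ± 0.43 (-2.0003 without pig 14). *MAPT*, which encodes the microtubule binding protein tau, was at 54.8, 29.2, 38.6 and 27.9 CPM against 10.96, 11.05, 23.6 and 21.8 CPM, higher by 1.16 ± 0.31 on the log2 scale. *PLAC8* was highest in IR pig 11, at 89.4 CPM against 10.04 to 17.4 CPM in the other IR pigs and 3.59 to 10.04 CPM in sham pigs, with IR pig 2 only just above the highest sham pig. *CSF3R*, the receptor of the granulocyte growth factor, was at 1.73 ± 0.41 CPM in IR pigs and 0.788 ± 0.38 CPM in sham pigs. The other genes named by the same rule were at most 2.50 CPM in every pig, and are *RAB17*, *CLHC1*, *LRRC3*, *TEKT3* and *EXOG* on the higher side and *CEACAM16*, *ERICH4*, *ABCA4*, *MOB3B* and *GALNT17* on the lower side.

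**Figure D2:**
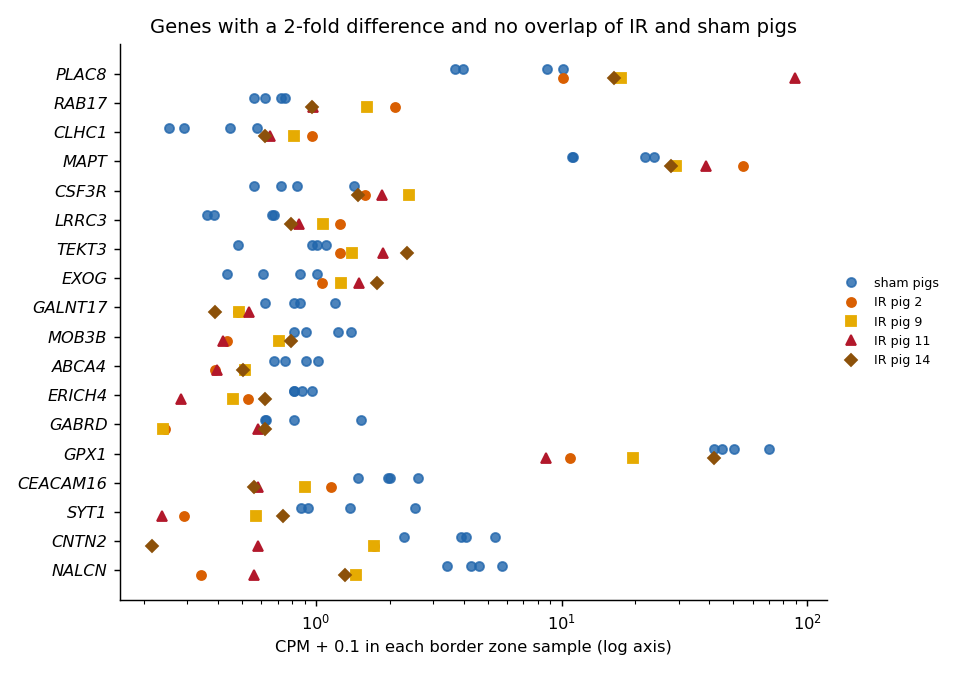
CPM plus 0.1 (log axis) of the 18 symbol-named genes with a 2-fold difference, a raw p-value up to 0.05 and no overlap, 8 higher and 10 lower in IR pigs. Each row shows the 4 sham pigs as blue points and the 4 IR pigs by symbol, and *GPX1*, *MAPT* and *PLAC8* reach 69.7, 54.8 and 89.4 CPM while the other genes do not exceed 5.599 CPM.

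Away from these genes, the larger differences lay in IR pigs that stood apart from each other. Of 12838 genes with a mean of at least 1 CPM, IR pig 11 had 199 at least 2-fold above the highest sham pig and 88 at least 2-fold below the lowest. The numbers were 112 and 117 in pig 2, 33 and 41 in pig 9, and 10 and 52 in pig 14. Such genes were seldom shared, with 285 above the sham range in a single IR pig, 31 in 2 pigs, 1 in 3 pigs and 1 in all 4. The SD of log2 CPM was larger among IR pigs than among sham pigs for 59.7% of genes (medians 0.27 and 0.23). It was larger for 48.6%, 55.1%, 57.3% and 58.9% without IR pigs 2, 9, 11 and 14. Those shares set 3 IR pigs against 4 sham pigs, which can by itself lower them. Library depth also differed between these pigs, and its part was not tested.

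Cardiomyocyte stress and fetal genes were higher in 3 of the 4 IR pigs than in most sham pigs. Of 26 genes tested, 22 had a higher mean in IR pigs (50% over all genes), the median log2 fold change was 0.42, and 4 were higher and 1 lower at a raw p-value up to 0.05 (2.09% and 1.69% over all genes). These became 13 and 0 without IR pig 9, 2 and 2 without IR pig 2, and 2 and 0 without sham pig 4. Over all genes, with both directions together, the count moved from 519 to 961, 860 and 365 in the same order. *ANKRD1*, a stretch-responsive nuclear protein of cardiomyocytes, was at 4667, 1565, 7101 and 3489 CPM in IR pigs and at 2620, 2112, 2205 and 2826 CPM in sham pigs. Pigs 2, 11 and 14 were above all sham pigs and pig 9 below them, with a log2 fold change of 0.78 ± 0.36 (exact permutation p = 0.314, two-sided), and 0.40 without IR pig 11. *NPPB*, which encodes brain natriuretic peptide, was at 523 and 436 CPM in IR pigs 2 and 11 and at 27.3 and 33.3 CPM in pigs 9 and 14. Sham pig 12 had 229 CPM and the other sham pigs 4.74 to 14.8 CPM, so the groups overlapped (log2 fold change 2.01 ± 1.34, and 4.97 without sham pig 12 or 1.38 without IR pig 2). The same pigs stood out for *ENAH*, an actin regulator, at 229.9, 79.6, 377 and 128 CPM against 65.7 to 94.6 CPM in sham pigs, and for *FHL1*, a sarcomere stress protein, at 1412, 293, 1002 and 564 CPM against 346 to 448 CPM. *FLNC* and *XIRP1* (the latter named after its values were seen), which serve repair of the Z-disc and the intercalated disc, differed by 0.66 ± 0.23 and 0.64 ± 0.23. *TNNI1*, the fetal troponin I and also named after its values were seen, went the other way, at 36.6, 15.6, 8.46 and 17.1 CPM against 60.8, 6.52, 86.2 and 55.5 CPM.

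Over the whole stress list, 21 of 26 genes in pig 2, 17 in pig 11, 11 in pig 14 and 0 in pig 9 were above every sham pig, where 24.4%, 24.8%, 21.0% and 19.9% of all genes were. Without pig 2 the median log2 fold change was 0.20, and without pig 9 it was 0.63. *CNN1*, calponin of smooth muscle and myofibroblasts, followed the same order of pigs at 437, 15.6, 189 and 72.3 CPM against 41.3 to 58.9 CPM. Over the 17 smooth muscle and pericyte genes, 7 had a higher mean in IR pigs, with a median of -0.06. Their median log2 ratio to the sham mean had the same order of pigs at a smaller size, 0.20 in pig 2, 0.16 in pig 11, -0.12 in pig 14 and -0.30 in pig 9. *INHBA*, a ligand of the TGF-beta family, was at 12.003, 1.38, 25.8 and 2.77 CPM against 1.58 to 4.56 CPM.

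The median over 20 genes of the mature sarcomere was 0.02. Pig 9 had 10 of them below every sham pig (22% over all genes) and pig 11 had 9 above (24.8%). Pig 2 had 5 above and 4 below and pig 14 had 5 above and 0 below, where 24.4% and 21.0% of all genes were above. *MYPN*, the Z-disc protein myopalladin, was above all sham pigs in pigs 2, 11 and 14 and below them in pig 9, at 219, 141, 269.8 and 179 CPM against 144.7 to 159 CPM in sham pigs, with a log2 fold change of 0.42 ± 0.18 (0.25 without IR pig 11). *MYH7*, the slow myosin heavy chain, averaged 45558 ± 5920 CPM in IR pigs against 39894 ± 4404 CPM. Of 30 genes of fatty acid and ketone oxidation the median was 0.03, with *HADHB* of beta-oxidation at a log2 fold change of 0.34 ± 0.14 and *CPT1B*, the carnitine shuttle enzyme of muscle, at 0.15 ± 0.15. The median was 0.02 over 30 genes of glycolysis and 0.00 over the 13 mitochondrially encoded genes. Of those 13, 9 were above every sham pig in pig 11 (24.8% over all genes). In pigs 2 and 9, 7 each were below every sham pig (24.1% and 22%), and pig 14 had 3 above and 2 below (21.0% and 19.8%). Of 39 nuclear genes of the respiratory chain, 9 had a higher mean and 30 a lower one, with a median of -0.10. This came with IR pig 9, in which 31 of the 39 were below every sham pig, against 2, 3 and 1 in pigs 2, 11 and 14 (22%, 24.1%, 24.8% and 19.8% over all genes), and without it the median was -0.00. It was also -0.00 without sham pig 4. *NDUFB9*, a subunit of complex I, had the lowest p of the list, at 274, 276, 288 and 286 CPM against 496, 462, 323 and 268 CPM.

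Interferon-stimulated genes had the largest median of the lists, and the difference came with IR pig 11. All 50 genes tested had a higher mean in IR pigs, with a median log2 fold change of 1.15. At the raw p-value threshold, 14 of them were at least 2-fold higher, among 71 such genes (0.517%) of all genes tested. *CXCL10*, a chemokine that draws T cells, was at 17.2, 67.6, 343 and 30.2 CPM in IR pigs and at 25.5, 13.2, 36.1 and 19.6 CPM in sham pigs. Pig 11 was far above all others, pig 9 was next, and pigs 2 and 14 lay among the sham pigs. *ISG15*, an ubiquitin-like antiviral protein named after its values were seen, was at 694 CPM in pig 11 and between 8.40 and 34.6 CPM in the other 7 pigs. All IR pigs were above all sham pigs in 0 of the 50 genes, beside 0.867% of all genes.

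In pig 11, 49 of the 50 interferon genes exceeded every sham pig, in pig 9 23, in pig 14 3 and in pig 2 0, where 24.8%, 19.9%, 21.0% and 24.4% of all genes did, so pigs 14 and 2 had lower shares than over all genes. Without pig 11 the median was 0.06 and 27 of 50 genes were higher. Without sham pig 5, the lowest of the sham pigs, the count at a raw p-value up to 0.05 with a 2-fold difference was 2 in place of 14, and the median was 0.92. That count was 4 without sham pig 13, 7 without sham pig 4, 0 without IR pig 11 and 29 without IR pig 2. It was 6 with DESeq2, 7 with sex as a covariate or with 1 factor of unwanted variation, 1 with limma on log2(TPM + 0.1) and 0 with limma on log2(TPM + 1), where the median was 0.63. Over all genes, the same count was 71, and 46, 71, 54, 29 and 94 without sham pigs 5, 13 and 4 and IR pigs 11 and 2. It was 70 with DESeq2, 58 with sex, 47 with the factor, and 32 and 21 with limma on log2(TPM + 0.1) and log2(TPM + 1). The mean log2 CPM of the list was 2.54 above the sham mean in the border zone of pig 11 and 2.55 above it in the scar zone of the same pig. In pig 9 the values were 0.48 and 0.55, in pig 14 0.18 and 0.34, and in pig 2 -0.19 and 0.05. Pig 11 was thus nearly as far above the sham mean in both of its samples, which are separate libraries of 1 animal.

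Antigen presentation genes were ordered in the same way but less unevenly. All 22 tested had a higher mean in IR pigs, 6 at a raw p-value up to 0.05 (2.09% over all genes), and the median was 0.45 (0.18 without pig 11, with 18 of 22 higher). The 6 became 1 without IR pig 11 and also without sham pig 4, 5 or 13, 3 without IR pig 9 and 11 without IR pig 2, and 3 with limma on log2(TPM + 1). Over all genes, with both directions together, the count moved from 519 to 266, 365, 285, 577, 961, 860 and 362 in the same order. *TAPBP*, the chaperone that loads peptide onto class I molecules, was at 65.1, 76.3, 142 and 63.7 CPM in IR pigs and at 56.9, 52.0, 59.6 and 60.9 CPM in sham pigs, with no overlap. *TAP1*, the peptide transporter, was at 300.4 CPM in pig 11 and 88.4 CPM in pig 9, and in pigs 2 and 14 at 48.8 and 52.4 CPM, within the sham range of 27.9 to 57.7 CPM. *SLA-5*, a swine class I gene, was highest in pig 9, at 1.48, 15.2, 6.75 and 9.30 CPM against 1.72, 5.04, 1.71 and 1.09 CPM, and reads of class I genes are divided among near-identical copies, so its values are uncertain.

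Of 21 complement genes, 13 had a higher mean in IR pigs and 8 a lower one, with a median of 0.22, 0.01 without IR pig 11 and 0.06 without sham pig 5. Pigs 11 and 9 had 12 and 10 of them above every sham pig (24.8% and 19.9% over all genes), and pigs 2 and 14 had 2 each. The 3 at a raw p-value up to 0.05 (2.09% higher over all genes) were each highest in pig 11, and none was lower. That count was 0 without IR pig 11 or sham pig 4, 1 without IR pig 9 or sham pig 5 or 13, 1 with DESeq2, and 0 with limma or with all 16 samples in the fit. Over all genes, with both directions together, 519 became 266, 365, 961, 285 and 577 in the left-out fits in that order. *C1S*, a protease of the classical pathway, was at 63.5, 148, 398 and 56.6 CPM against 42.5 to 83.2 CPM in sham pigs, and its partner *C1R* at 69.0, 128, 267 and 55.6 CPM against 40.0 to 80.4 CPM. *CFI*, complement factor I, was at 2.58, 3.51, 11.7 and 3.93 CPM against 1.82 to 3.16 CPM. Without pig 11 the log2 fold changes of *C1S*, *C1R* and *CFI* were 0.37, 0.39 and 0.42, in place of 1.26, 1.01 and 1.13.

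Leukocyte genes were low and varied among sham pigs as much as among IR pigs. *PTPRC*, the leukocyte antigen CD45, was at 22.4, 58.6, 31.1 and 32.9 CPM against 30.9, 12.5, 44.1 and 23.1 CPM, and *CD3E* of T cells at 2.30, 8.29, 2.33 and 4.10 CPM against 5.98, 0.764, 5.33 and 2.52 CPM. Of 36 lymphocyte genes, 28 had a higher mean in IR pigs, with a median of 0.34. Pig 9 had 24 of them above every sham pig (19.9% over all genes) and pigs 2, 11 and 14 had 1, 4 and 4 (24.4%, 24.8% and 21.0%), and without pig 9 the median was -0.03 with 18 of 36 higher. That median also moved with the sham pigs, to 0.11 without sham pig 5, 0.55 without sham pig 4 and 0.53 without sham pig 12. *GATA3*, a transcription factor of T helper and innate lymphoid cells, was the exception with no overlap, lower at 2.63 ± 0.42 CPM against 3.81 ± 0.25 CPM. The globin gene *HBB*, one of the erythroid markers checked, was also highest in pig 9, at 484 CPM against 98.3 to 224 CPM in the other 7 pigs, and the part of blood in the lymphocyte values was not tested.

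The median over 34 macrophage and dendritic cell genes was 0.06, and the IR pigs differed. Pigs 9 and 11 had 15 and 14 of them above every sham pig (19.9% and 24.8% over all genes), and pigs 2 and 14 had 0 and 2. These are the pigs in which interferon, antigen presentation and complement genes were higher, and the part of macrophage content in those values was not tested. *CD163*, of resident macrophages, was at 31.2, 35.2, 27.8 and 44.4 CPM against 28.7, 26.6, 54.3 and 42.4 CPM. *CD86*, a costimulatory molecule, was at 7.22, 15.6, 27.7 and 11.8 CPM against 9.19, 4.99, 9.66 and 9.82 CPM, so pigs 9, 11 and 14 were above the sham pigs. *GPNMB*, a glycoprotein of lipid-laden macrophages, was lower at 5.98, 2.98, 4.05 and 1.96 CPM against 12.3, 9.22, 3.09 and 13.9 CPM, where sham pig 12 was among the IR pigs. The median was 0.14 over 54 chemokines, cytokines and receptors (0.09 without IR pig 11 and 0.24 without sham pig 13). Among them was *ACKR4*, a scavenging chemokine receptor, at 1.34, 0.663, 1.83 and 1.10 CPM against 0.383 to 0.666 CPM.

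**Figure D3:**
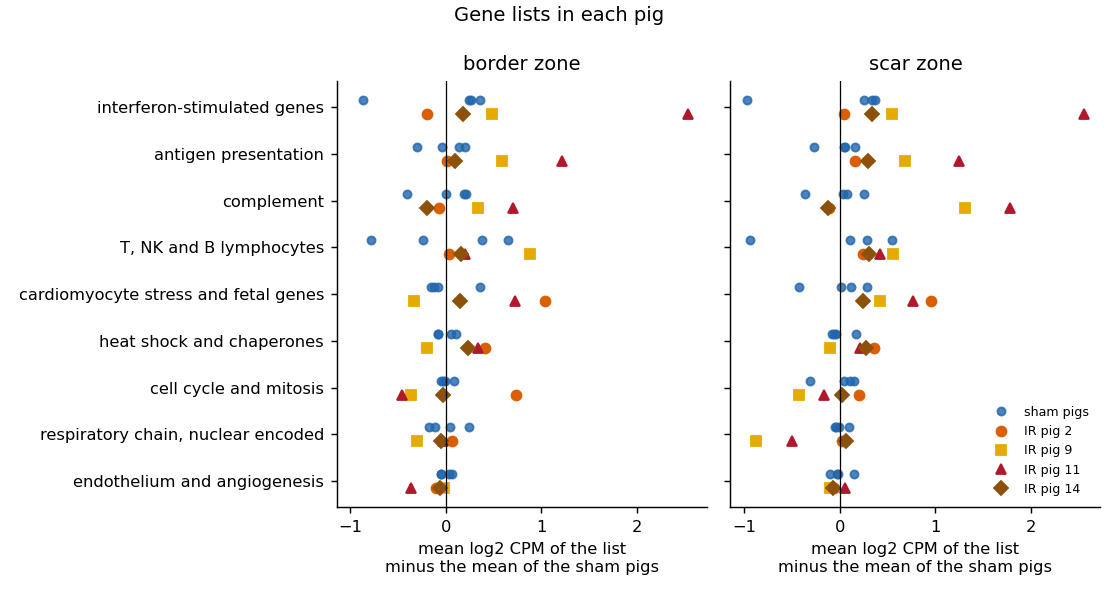
Mean log2 CPM over the genes of 9 lists in each pig, minus the mean of the 4 sham pigs, in the border zone (left) and in the scar zone of the same pigs (right). Blue points are sham pigs and the other symbols IR pigs. Interferon-stimulated genes were 2.54 above the sham mean in the border zone of pig 11, and cell cycle genes 0.73 above it in pig 2.

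Cell cycle genes split the IR pigs in both directions. In pig 2, 52 of 61 genes were above every sham pig, while 45 in pig 9 and 47 in pig 11 were below every sham pig. Over all genes 24.4% were above in pig 2, and 22% and 24.8% below in pigs 9 and 11. Pig 14 had 13 above and 12 below, near its shares over all genes of 21.0% and 19.8%. The median log2 fold change of the groups was 0.04, with 38 of 61 genes higher. It was -0.29 without pig 2 (10 of 61 higher), 0.20 without pig 9 (44), 0.21 without pig 11 (48) and -0.10 with 1 factor of unwanted variation (16). *CDK1*, the kinase that drives entry into mitosis, was at 42.9, 10.5, 9.35 and 19.5 CPM in IR pigs and at 12.1, 12.3, 19.7 and 16.8 CPM in sham pigs. *CCNB1*, its cyclin partner, was at 51.7, 12.7, 12.8 and 21.0 CPM against 19.95, 21.6, 23.2 and 19.4 CPM. Both were named after their values were seen, and both were more than 2-fold higher in pig 2 than in every sham pig. The mean over the list was 0.73 above the sham mean in the border zone of pig 2 and 0.20 above it in its scar zone, where the SD among sham pigs was 0.06 and 0.21. The libraries of bulk tissue do not show which cells carried these transcripts.

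The cell cycle and apoptosis lists also held *CDKN1A*, *MDM2*, *FAS*, *PMAIP1* and *CCND1*. *CDKN1A*, the cell cycle inhibitor p21, was at 24.0, 11.6, 47.4 and 10.5 CPM in IR pigs against 8.18, 7.74, 5.23 and 12.7 CPM, highest in pigs 11 and 2. *MDM2*, the ubiquitin ligase of p53 and itself a p53 target, was higher in all IR pigs at 25.01, 29.0, 35.3 and 24.8 CPM against 22.3 to 23.5 CPM. *FAS* and *PMAIP1*, death genes that p53 can induce, differed by 0.49 ± 0.20 and 0.80 ± 0.33 (0.29 and 0.51 without IR pig 11) and overlapped with sham pigs. *CCND1*, cyclin D1, was at 223, 149, 142 and 174 CPM against 139, 123, 139 and 140 CPM, with no overlap and a log2 fold change of 0.34 ± 0.15 (0.19 without IR pig 2). Of 25 apoptosis genes, 4 were higher and 0 lower at a raw p-value up to 0.05 (2.09% and 1.69% over all genes), and the median was 0.07. The 4 became 0 without IR pig 11 and without sham pig 4 or 5, 1 without sham pig 12 and 2 without sham pig 13. Over all genes, with both directions together, 519 became 266, 365, 285, 606 and 577 in the same order. The 4 also became 2 under upper-quartile scaling and with limma, and 1 with limma without a filter. The median of the list was 0.0004 without IR pig 11 and 0.16 without IR pig 14.

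The mean level over the chaperones was above every sham pig in pigs 2, 11 and 14 and below every sham pig in pig 9. Of 23 genes, 21 had a higher mean in IR pigs, with a median of 0.17 (0.07 without IR pig 2 and 0.30 without IR pig 9). *DNAJB9*, a cochaperone of the endoplasmic reticulum, was at 30.7, 33.8, 62.7 and 35.1 CPM against 18.7, 22.1, 28.1 and 27.5 CPM, with no overlap (0.75 ± 0.24, and 0.46 without IR pig 11). *HSPA5*, the main chaperone of that compartment, was at 389, 327, 558 and 342 CPM against 276, 339, 319 and 246 CPM, so pig 9 overlapped with the sham pigs. Over the list, pig 9 had 11 genes below every sham pig and 1 above (22% and 19.9% over all genes), and pigs 2, 11 and 14 had 14, 13 and 9 above (24.4%, 24.8% and 21.0%). The median of 23 hypoxia response genes was 0.08 (-0.0005 without sham pig 12), and that of 30 immediate-early genes 0.17 (0.05 without IR pig 11 and 0.08 without sham pig 12).

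Of the matrix lists, the glycoproteins had the median farthest from 0. The median log2 fold change was 0.16 over 35 matrix glycoproteins (24 with a higher mean), 0.00 over 20 collagens, 0.03 over 34 crosslinking and turnover enzymes, -0.03 over 16 basement membrane genes and 0.04 over 19 fibroblast genes. Pigs 2 and 11 each had 17 of the 35 glycoproteins above every sham pig (24.4% and 24.8% over all genes), pig 14 had 8 (21.0%), and pig 9 had 1 above and 11 below (19.9% and 22% over all genes). Their median was 0.08 without IR pig 2 and 0.03 without sham pig 4. *COL1A1*, the main fibrillar collagen chain, was at 1533, 681, 1472 and 853 CPM in IR pigs and at 853, 1203, 979 and 1118 CPM in sham pigs, and *POSTN*, a matricellular protein of activated fibroblasts, at 61.3, 100.04, 122 and 96.8 CPM against 96.1, 121, 53.3 and 106 CPM. *CILP*, a matrix protein of cardiac fibroblasts, had the largest difference of these lists, at 85.5, 14.3, 29.0 and 20.7 CPM against 11.4, 19.8, 3.66 and 12.5 CPM (1.66 ± 0.59, and 0.85 without IR pig 2). *TIMP4*, a metalloproteinase inhibitor abundant in heart, was lower in every IR pig, at 13.7, 10.8, 12.8 and 15.6 CPM against 18.8, 16.9, 21.1 and 18.9 CPM (-0.52 ± 0.15). *ADAMTS12* and *MMP19*, both secreted proteases, were lower by 0.68 ± 0.22 and 0.45 ± 0.18 and overlapped with sham pigs.

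Of 43 endothelial and angiogenesis genes, 13 had a higher mean in IR pigs and 30 a lower one, with a median of -0.12 (-0.06 without pig 11, -0.06 without sham pig 5 and -0.20 without IR pig 14). In pig 11, 27 of the 43 were below every sham pig, against 12, 14 and 5 in pigs 2, 9 and 14, where 24.8%, 24.1%, 22% and 19.8% of all genes were in the same order. *RGCC*, a regulator of the cell cycle expressed in endothelium, was at 39.6, 42.5, 37.2 and 51.9 CPM against 58.3, 64.5, 54.4 and 52.6 CPM, with no overlap. *PECAM1* was at 269, 317, 269 and 407 CPM against 417, 473, 332 and 383 CPM, and *SOX17*, an arterial transcription factor, differed by -0.72 ± 0.29. *ESM1*, a marker of endothelial tip cells, was higher at 7.27, 1.96, 5.81 and 4.33 CPM against 1.63 to 2.91 CPM. *VEGFA*, the main angiogenic growth factor, was at -0.04 ± 0.15.

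**Figure D4:**
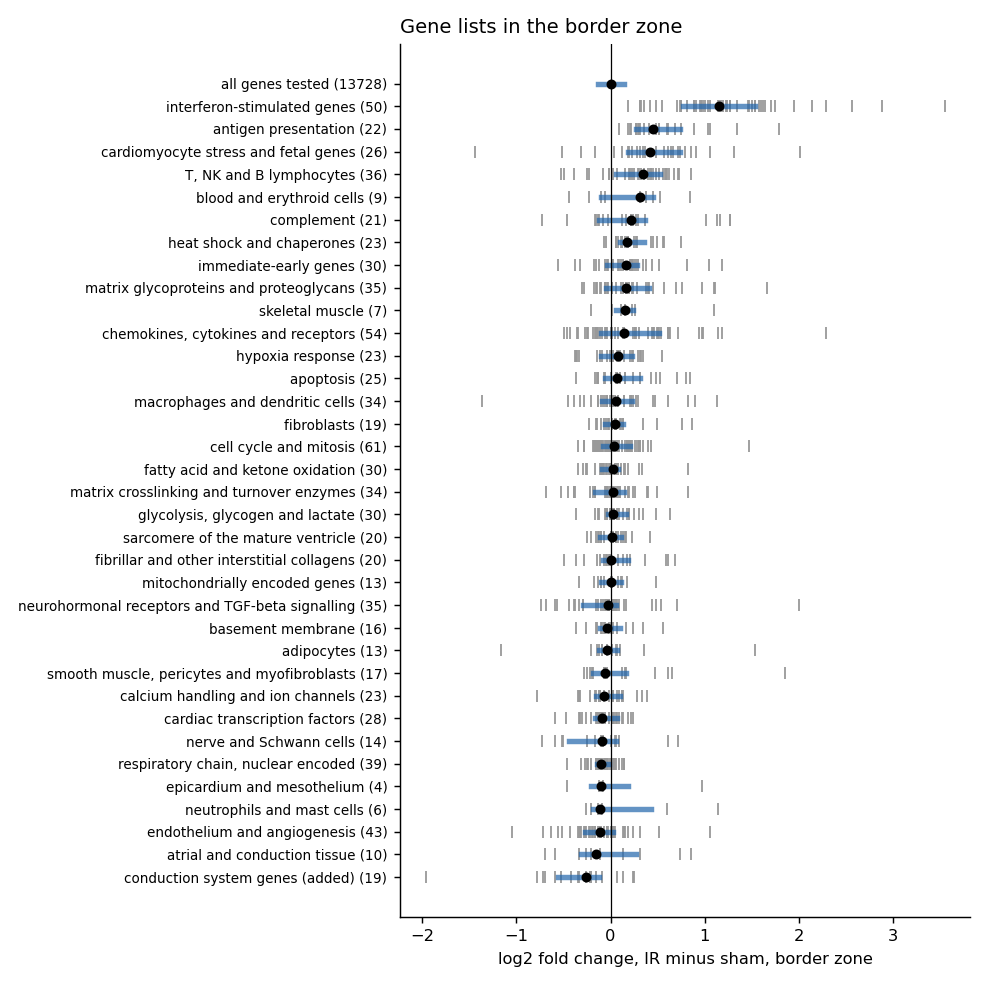
Log2 fold change (IR minus sham) in the border zone of the genes of each list, with the number tested in parentheses. Gray ticks are genes, blue bars the middle 50% and black points medians, which run from 1.15 for interferon-stimulated genes to -0.26 for the conduction genes listed after their values were seen, beside 0.00 over all genes.

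Among the remaining lists, the median was -0.03 over 35 genes of neurohormonal receptors and TGF-beta signalling and -0.09 over 28 cardiac transcription factors. It was -0.16 over 10 atrial and conduction genes, -0.04 over 13 adipocyte genes and -0.09 over 14 nerve and Schwann cell genes. It was -0.10 over 4 epicardial genes, 0.16 over 7 skeletal muscle genes, 0.31 over 9 blood genes (5 of which were above every sham pig in pig 9, 3 in pig 14 and 0 in pigs 2 and 11, where 19.9%, 21.0%, 24.4% and 24.8% of all genes were) and -0.11 over 6 neutrophil and mast cell genes.

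The scar zone of the same pigs served to ask which differences depended on the zone. The effect of IR was tested between zones over 14278 genes in all 16 samples, and 0 genes passed the adjusted threshold in edgeR's quasi-likelihood test, without or with the pig as a block (smallest adjusted p-values 0.9998 and 0.702). At the unadjusted p-value with a 2-fold difference, the IR effect was larger in the scar zone for 189 genes and smaller for 7, and for 199 and 18 with the pig as a block. The matrix genes named whatever their values had larger log2 fold changes in scar zone samples, here given before those of the border zone, at 1.96 and 0.13 for *COL1A1*, 1.85 and 0.02 for *POSTN*, 1.92 and 0.20 for *FN1* and 1.13 and -0.03 for *COL3A1*. With the pig as a block these zone differences were smaller, from 1.84 to 1.35 for *COL1A1* (unadjusted p = 0.023 and 0.077 with the block), from 1.84 to 1.14 for *POSTN* (0.035 and 0.086), from 1.73 to 1.01 for *FN1* (0.037 and 0.236) and from 1.18 to 0.73 for *COL3A1* (0.076 and 0.194). The scar values came with pigs 9 and 11, in which the mean log2 CPM over the collagens was 2.06 and 1.68 above the sham mean, against 0.22 and -0.22 in pigs 2 and 14. Other matrix genes named above varied, at 2.02 and 0.76 for *LTBP2*, 2.28 and 1.66 for *CILP* and 0.32 and -0.45 for *MMP19*. *TIMP4* (-0.43 and -0.52) and *ADAMTS12* (-0.54 and -0.68) were lower in IR pigs in both zones. The zone difference of *CILP* was 0.64, and 0.04 with the block. For *FOS*, an immediate-early gene, the log2 fold changes were 3.49 and 0.38 (unadjusted p = 0.028, and 0.018 with the block). *GPNMB* differed in direction, with 1.44 in scar and -1.36 in border tissue (unadjusted p = 0.011, and 0.0032 with the block). The interferon-induced *CXCL10* had similar values in both, at 2.09 and 2.28 (0.71 in the border zone without pig 11), and *NALCN* (-1.30 and -2.43), *CNTN2* (-1.51 and -1.96) and *GPX1* (-0.92 and -1.37) were lower in IR pigs in both. The zone difference of *GPX1* was 0.46, and 0.53 with the block. Its unadjusted p was 0.478, and 0.014 with the block, in edgeR's quasi-likelihood test (adjusted p with the block 0.702).

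**Figure D5:**
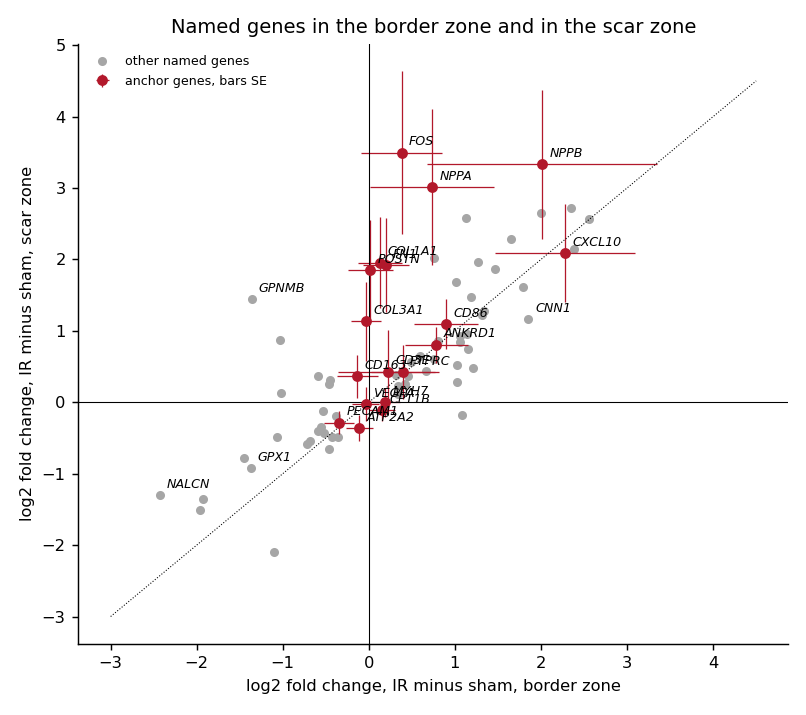
Log2 fold change (IR minus sham) of named genes in the scar zone against that in the border zone, with SE bars for the genes named whatever their values. Points on the dotted line have equal values in both zones. *COL1A1*, *POSTN* and *FN1* lie near 0 on the border axis and between 1.85 and 1.96 on the scar axis, while *CXCL10* lies near the line.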

How the data were processed

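Polyadenylated RNA of the left ventricle was made into stranded libraries and sequenced. Per the labels, the submitters' processing notes name Trimmomatic 0.33, HISAT2 2.0.5 and kallisto 0.43.1, and the genome build is not given in the sources used here. The authors deposited estimated counts per gene, which kallisto made from Ensembl pig cDNA, without scaling for depth. The authors also deposited TPM, in which those estimates are divided by transcript length and depth. Of 22629 genes, 15095 carry a symbol and 7534 an Ensembl ID, of which 915 took a symbol from a name table. Reads of near-identical genes are divided by kallisto. Every column was mapped to its sample by title, and 0 columns were left out.

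The 8 border samples were fitted by themselves. Estimated counts were rounded, filtered with filterByExpr (minimum count 10, minimum total 15), scaled by TMM and tested with edgeR 4.0.16 in R 4.3.3 (quasi-likelihood test, IR against sham, no covariate), with p-values adjusted after Benjamini-Hochberg over the 13728 genes. CPM are TMM scaled, and 2 was the prior count of log2 CPM. Log2 CPM of single genes were also compared by exact permutation, two-sided. Totals of 17379477 to 49045206 counts put 3 counts at 0.0686 to 0.173 CPM, which covers counting error only. The fit was also run on simulated counts, with the same spread for all genes and large folds in well-expressed genes only. That checks the calculation, and not the power for small folds, low counts or IR pigs that differ from each other. How the IR effect differed between zones was fitted over 16 samples without and with the pig as a block. The pairing comes from the labels, since both zones are of the same animal, and the deviations of a pig's zones from their group means correlated at 0.354 to 0.692 over 14278 genes.

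Named genes are those with a symbol, a 2-fold difference, a raw p-value up to 0.05 and no overlap (up to 12 a direction), the gene with the lowest p-value, up to 3 genes of each list with the lowest raw p-values up to 0.05, and 21 anchor genes, of which *MYH6* and *MKI67* are not in the table used here. The values of 1 further anchor gene are not reported here. The comparison, the gene lists and the rule were chosen with earlier results of these data known, and genes outside the rule, other than cell type markers, are marked as such. As alternatives, DESeq2 1.42.0, upper-quartile scaling, no filter, sex as a covariate, 1 factor of unwanted variation from 5000 control genes (the study used RUVSeq, which was not used here), a fit of all 16 samples, edgeR's likelihood-ratio test, limma 3.58.1 on log2(TPM + 1) and log2(TPM + 0.1), no fold change threshold, and leaving out each pig were run.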

Additional observations from a re-analysis of the deposited data

Results flagged for a closer look

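The difference of the IR effect between female and male pigs was tested in edgeR's quasi-likelihood test over 13728 genes. It passed the adjusted threshold for *LIPM*, a lipase family gene, and for *ENSSSCG00000027665* (Benjamini-Hochberg adjusted p = 0.00499 for both). *LIPM* was at 0.0478 and 0 CPM in the female IR pigs 2 and 14, 7.82 and 4.35 CPM in IR males 9 and 11, 7.85 and 6.01 CPM in the female sham pigs 4 and 5 and 0 CPM in both male sham pigs. *ENSSSCG00000027665* was at 1201 and 1871 CPM in the female IR pigs, 401.5 and 401.1 CPM in IR males, 2.39 and 1.32 CPM in sham females and 1096 and 381 CPM in the male sham pigs. Each of these groups holds 2 pigs, and *LIPM* was at or near 0 in 4 of the 8, of both sexes, so a difference between single animals cannot be told apart from one of sex.

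Among 224 groups of 4 pigs examined, 14 held a pig far from the other 3 of its group, and about 1 in 20 would by chance, or 11 here. In IR pigs this was pig 11 for *MYH7* (54390 CPM) and *FOS* (25.4 CPM). In sham pigs it was pig 5 on the low side for interferon-stimulated genes (mean log2 CPM 3.27), chemokines, cytokines and receptors (2.14), *TAP1* (27.9 CPM), *C1S* (42.5 CPM), *CD86* (4.99 CPM) and *CCND1* (123 CPM), and on the high side for *CPT1B* (543 CPM). Sham pig 12 stood apart for cardiomyocyte stress and fetal genes (mean log2 CPM 8.19), *TBX3* (17.8 CPM) and *TEKT3* (0.381 CPM), sham pig 13 for *FOS* (17.0 CPM) and sham pig 4 for epicardial and mesothelial genes (3.63). Of the flags of pig 5, the interferon list, *TAP1* and *C1S* bear on the interferon, antigen presentation and complement values above.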

How the results depend on the processing

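The count of genes past the adjusted threshold was 0 in each direction in edgeR's quasi-likelihood test under every setting tried and in limma, and 1 higher and 1 lower with DESeq2 and with the likelihood-ratio test. *ENSSSCG00000001231* then had an adjusted p of 9.56e-08 with DESeq2 and 9.18e-06 with the likelihood-ratio test, and *NALCN* 0.00029 and 0.00274. At the unadjusted threshold the 71 higher and 38 lower genes became 155 and 162 without the filter, 21 and 11 with limma on log2(TPM + 1), 32 and 22 on log2(TPM + 0.1), 19 and 10 on log2(TPM + 1) without a filter, and 287 and 232 without a fold change threshold. With 1 factor of unwanted variation there were 47 higher genes. Leaving out a pig gave 29 to 126 higher and 40 to 77 lower genes. The lowest count of higher genes, 29, came without IR pig 11 and the highest, 126, without IR pig 14, lower genes were highest, at 77, without IR pig 9, and 44 of the 109 leading genes were again leading without pig 11. Higher genes were also 125 without IR pig 9, 119 without sham pig 12 and 46 without sham pig 5, and lower genes 58 and 70 without IR pigs 2 and 14. With a replicate block for the pig, the difference between zones gave 0 adjusted and 217 unadjusted genes, against 0 and 196 without it. The filter changes how many genes are tested and leaving out a pig how many samples; beyond that, the cause was not tested. At 3 counts, genes under about 0.173 CPM in a pig are not resolved.

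Signs of small differences turned. The log2 fold change of POSTN was -0.0057 under upper-quartile scaling and -0.0334 with the unwanted variation factor, and *COL3A1* at 0.009 on the 3 TPM scales. Over the pigs left out, the log2 fold change ranged from -0.13 to 1.65 for *NPPA*, -0.0522 to 0.31 for *COL1A1*, -0.15 to 0.0648 for *COL3A1*, -0.18 to 0.18 for *POSTN*, -0.28 to 0.087 for *CD163*, -0.34 to 0.57 for *CD3E*, -0.29 to 0.84 for *FOS* and -0.16 to 0.0581 for *VEGFA*. Leaving out IR pig 11 lowered *PLAC8* to 1.16, *CDKN1A* to 0.86, *INHBA* to 1.02 and *TAP1* to 0.39, leaving out IR pig 2 lowered *CNN1* to 0.89, and leaving out sham pig 5 raised *SLA-5* to 2.45. No other named gene changed direction under the settings run. Signs of list medians within 0.1 of 0 also turned and are not all listed. Of the other lists, leaving aside 3 sex-linked genes kept as a check of labels, the sign of the median turned without IR pig 9 for lymphocytes (-0.03) and blood (-0.16, and -0.08 with the unwanted variation factor), without IR pig 2 for skeletal muscle (-0.14), without sham pig 13 for neutrophils and mast cells (0.20, and to at most 0.01 without IR pig 2 or sham pig 4), and with limma for atrial and conduction genes (0.05 on log2(TPM + 1), 0.02 on log2(TPM + 0.1)). It also turned for epicardial genes, to 0.00 without sham pig 13.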

Other observations

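Some genes with a smaller fold than the naming rule asks for also had no overlap between IR and sham pigs, and were chosen here after their values were seen, by the lowest unadjusted p-values. *SCD5*, a fatty acid desaturase, was at 3.35, 3.48, 2.38 and 3.24 CPM in IR pigs 2, 9, 11 and 14 and at 4.64, 5.35, 5.90 and 6.17 CPM in sham pigs 4, 5, 12 and 13. *LDB2*, a LIM domain binding cofactor of transcription, was at 8.75, 8.15, 7.43 and 8.73 CPM against 11.6, 12.3, 11.8 and 11.6 CPM. *ANO1*, a calcium-activated chloride channel, was at 6.95 ± 0.89 CPM in IR pigs and 10.7 ± 1.17 CPM in sham pigs (mean ± SD, n = 4 each), and the septin gene *SEPT4* at 13.4 ± 2.17 and 19.9 ± 1.11 CPM. *SPCS2*, a subunit of the signal peptidase of the endoplasmic reticulum, was higher at 79.2 ± 10.4 CPM against 55.4 ± 5.90 CPM. The adjusted p-value was 0.988 for each of the 5 genes in edgeR's quasi-likelihood test.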
